A study of Mus musculus with 14 samples.

Results

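Knockout hearts at 15 months of age were compared with knockout hearts at 2 months. The comparison uses 7 of the 14 libraries of the series, 4 at 15 months and 3 at 2 months, taken by the genotype and age in their labels, and it covers all genes: 15528 of the 55487 genes in the count table had enough counts to be tested. The study sequenced total RNA, depleted of ribosomal RNA, from whole hearts of untreated male C57BL/6 mice. All 7 mice carried Myh6-Cre and a floxed Sqstm1 gene (Myh6-Cre-Sqstm1fl/fl), so the gene is removed where the Myh6 promoter is active, in cardiac muscle cells, and other heart cells keep it. The age groups therefore share the knockout, and only age differs by label. Each library is a whole heart, and the labels do not say whether the mice of a group shared a litter, a day or a batch, so what a p-value reflects here is heart-to-heart spread, which may be partly technical. The 7 wild-type libraries, 3 at 2 months and 4 at 15 months, serve as the comparison for the age effect and share no library with it.

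Sqstm1 encodes p62, a receptor that binds ubiquitin-tagged cargo and brings it to the autophagosome for breakdown in the lysosome. It also binds Keap1, the adaptor that marks the transcription factor Nrf2 (gene Nfe2l2) for the proteasome, and so links autophagy with the genes for antioxidant enzymes. With age the mouse heart is known for a stiffer matrix, lower mitochondrial capacity and weaker responses to adrenergic drive.

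Sqstm1 checked the labels. In the knockout hearts it stood at 15.2, 14.7 and 19.2 CPM (counts scaled to the size of the library) at 2 months and at 14.6, 37.0, 16.2 and 17.6 CPM at 15 months. Wild-type hearts had 139 to 177 CPM at 2 months and 173 to 238 CPM at 15 months, so no knockout library reached the wild-type range. Within the knockout the log2 fold change with age was 0.38 (standard error, SE, 0.27), and the ages overlapped (edgeR's quasi-likelihood test with Benjamini-Hochberg adjustment, adjusted p = 0.365). Without 15-month replicate 2, which held the highest value, the change was -0.02. All 7 libraries were rich in heart muscle transcripts, with Myh6 at 4929 to 17244 CPM and Tnnt2 at 1947 to 3453 CPM.

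The libraries held 21526968 to 30404416 counts. One of them, 15-month replicate 1, stood apart from the other aged hearts. Mitochondrially encoded genes took 46.0% of its counts, against 27.5% to 38.0% in the other 15-month hearts and 31.4% to 39.1% in the young ones. The atrial light chain gene Myl7 read 58.1 CPM there and at most 0.482 CPM in the other 6 knockout hearts. On the first principal component of the 2000 most variable genes, which held 48.2% of the variance, it lay at -9.63, between the young hearts (-32.6 to -21.5) and the other aged hearts (19.7 to 42.6). Counts of genes are given below with and without it.

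By 15 months 166 genes had risen and 183 had fallen in knockout hearts (adjusted p below 0.05), which is 1.07% and 1.18% of the genes tested, or 2.25% together. An unadjusted p below 0.05 was reached by 4151 genes, 26.7% of those tested. Among the risen genes 159 were protein-coding and the median log2 fold change was 1.33; 42 of them rose by at least 2 on the log2 scale. Among the fallen genes 148 were protein-coding, the median was -1.06, and 26 fell by at least 2. All but 2 of the 349 genes had knockout groups that did not overlap (2.23% of the genes tested), a pattern that 20.1% of all genes tested showed (8.83% upward, 11.3% downward). The exceptions were Fmo5, a flavin monooxygenase, and the small RNA gene Gm24305. Over all genes tested neither direction led, with 7858 genes (50.6%) above 0 and a median log2 fold change of 0.01.

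The number of genes depended on which hearts were in the fit. Without 15-month replicate 1 it was 1600 higher and 1923 lower, 22.6% of the genes tested, and 348 of the 349 genes were among them. Leaving out another heart lowered it: to 29 higher and 20 lower without 2-month replicate 1, 43 and 41 without replicate 2, 37 and 32 without replicate 3, 69 and 47 without 15-month replicate 2, 56 and 33 without replicate 3, and 55 and 39 without replicate 4. In all 7 of these fits 40 genes stayed past the threshold, 24 higher and 16 lower, while 199 of the 349 did so in 1 of them. The genes described first come from these 40. Counts of list members below also come from other fits, and each is to be read against the share of all genes tested that passed there. That share was 22.6% without 15-month replicate 1, 10.4% in the tool DESeq2 and 3.12% in the tool limma voom. At an unadjusted p below 0.05 it was 26.7%. With the length slope in the fit, described with gene length, it was 0.554%. Counts of members without overlap are to be read against 8.83% upward and 11.3% downward.

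**Figure D1:**
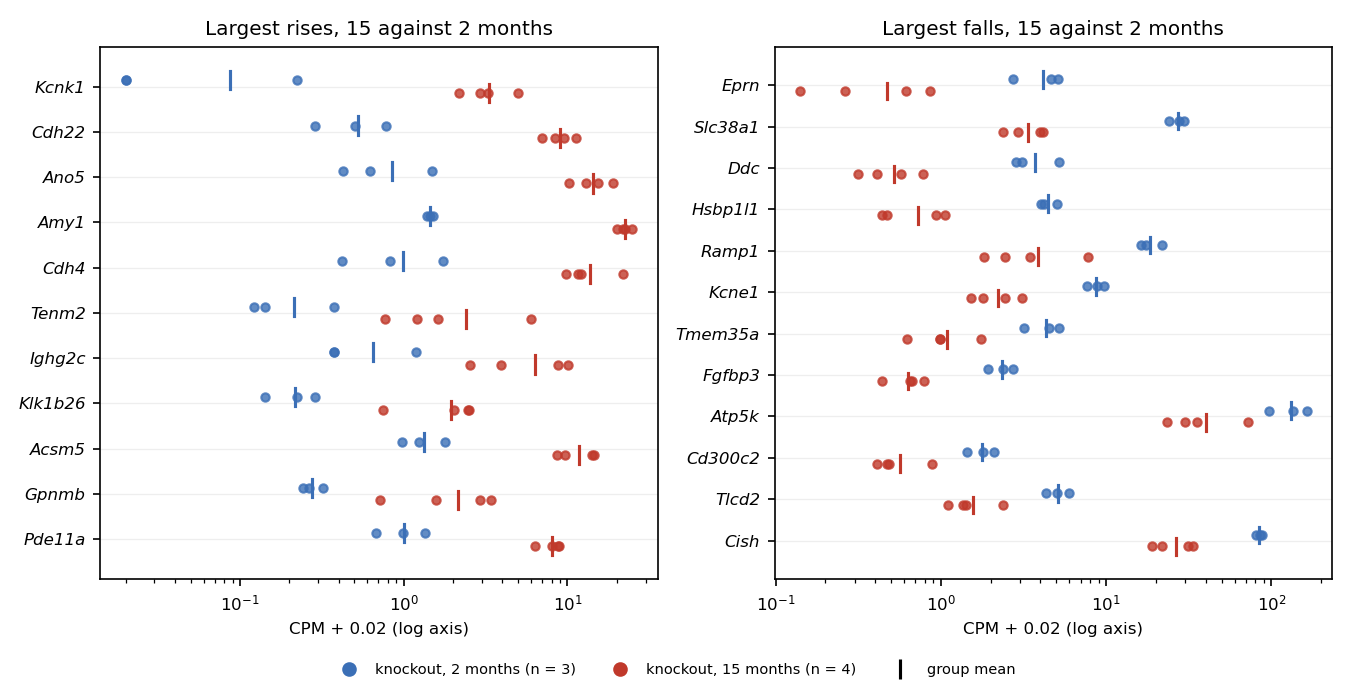
CPM plus 0.02 on a log axis (horizontal) for 11 of the 12 largest rises (left) and the 12 largest falls (right) past the threshold, with each knockout library as a point and the group mean as a bar (blue, 2 months, n = 3; red, 15 months, n = 4). In every gene plotted the ages do not overlap, as the rule for naming them required; Amy1 goes from 1.36 to 1.5 CPM in the young hearts to 20.1 to 24.9 CPM in the aged hearts.

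The genes that rose most steadily encode enzymes, adhesion proteins and membrane channels. Amy1, an amylase gene (chr3:113555710-113606699, minus strand, GRCm38), read 1.36, 1.42 and 1.5 CPM at 2 months and 22.3, 22.0, 20.1 and 24.9 CPM at 15 months. Every aged heart was far above every young one, and the replicates of each age lay close together. The log2 fold change was 3.96 (SE 0.20, adjusted p = 7.07e-08). Amy1 has near-identical relatives, so the assignment of its reads is uncertain.

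Ano5 encodes an anoctamin of the muscle membrane that takes part in membrane repair and is mutated in a form of limb-girdle muscular dystrophy. The gene (chr7:51511029-51598709, plus strand) stood at 0.606, 1.46 and 0.404 CPM in young hearts and at 10.2, 13, 15.4 and 18.9 CPM in aged ones. Its log2 fold change was 4.12 (SE 0.37, adjusted p = 4.91e-05), with no overlap.

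Kcnk1, a potassium leak channel gene (chr8:125995170-126030685, plus strand), was nearly silent at 2 months: 4 counts in the 3 hearts together, all in replicate 1 (0.202 CPM). It held 336 counts at 15 months, at 3.24, 2.16, 2.89 and 4.96 CPM. The fitted log2 fold change, 5.65 (SE 0.70, adjusted p = 0.000859), rests on those few young counts. Pde11a, a phosphodiesterase for cyclic AMP and cyclic GMP, rose from 0.657, 1.33 and 0.970 CPM to 8.68, 6.29, 8.91 and 8.03 CPM (log2 fold change 3.0, SE 0.42, adjusted p = 0.00282). Acsm5, a mitochondrial medium-chain acyl-CoA synthetase, rose from 0.960 to 1.77 CPM in the young hearts to 8.63 to 14.6 CPM in the aged ones.

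Cadherins and other genes for cell contacts, which join neighbouring cells, gave 3 rises and 0 falls among 18 tested, with a list median of 0.57 (-0.07 with the length slope in the fit, described with gene length, where 2 rose). Without 15-month replicate 1 there were 9 rises. Cdh22 stood at 0.758, 0.266 and 0.485 CPM at 2 months and at 8.41, 6.95, 11.3 and 9.51 CPM at 15 months (log2 fold change 4.18, SE 0.46, adjusted p = 0.000338). Cdh4 went from 1.72, 0.399 and 0.809 CPM to 11.6, 9.80, 21.7 and 12.1 CPM (3.85, SE 0.45, adjusted p = 0.00056). In both cadherin genes the lowest aged heart was several times the highest young one. Ctnna3, the alpha-T-catenin of the intercalated disc, rose by 0.89 (SE 0.17, adjusted p = 0.0224) and lost its call without any of 2-month replicates 1 and 3 and 15-month replicates 2 and 4 (adjusted p up to 0.137).

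Genes for lipid synthesis, receptors and transport were also among the steady rises. Cds1, which makes the CDP-diacylglycerol used for phosphoinositide and cardiolipin synthesis, read 1.41, 2.17 and 2.22 CPM in young hearts and 9.49, 10.9, 10.9 and 10.3 CPM in aged hearts (log2 fold change 2.42, SE 0.19, adjusted p = 1.19e-05). Prlr, the prolactin receptor, went from 6.63 ± 1.06 CPM (SD, n = 3) to 19.8 ± 2.51 CPM (SD, n = 4), and the lymphatic growth factor gene Vegfd from 0.777 ± 0.183 to 2.93 ± 0.411 CPM (same n). The organic cation transporter Slc22a3, which clears catecholamines, rose by 1.22 on the log2 scale (SE 0.19, adjusted p = 0.0063). For each of these 4 genes the call held in all 7 fits that leave out 1 heart.

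Among the falls Slc38a1 was the steadiest. It encodes a sodium-coupled transporter of glutamine and other neutral amino acids (chr15:96571418-96642913, minus strand). Young hearts read 24.0, 27.8 and 29.7 CPM, and aged hearts 2.91, 3.96, 4.15 and 2.36 CPM. The mean at 15 months was 0.123 times that at 2 months (log2 fold change -3.01, SE 0.23, adjusted p = 1.19e-05). Of the 21 amino acid transporter genes tested, Slc7a2, a transporter of arginine and lysine, rose and Slc38a1 fell. Slc7a2 read 1.72, 1.73 and 1.66 CPM and then 3.94, 7.34, 6.77 and 5.55 CPM (log2 fold change 1.8, SE 0.44, adjusted p = 0.0485), and it kept the call in 1 of the 7 fits, that without 15-month replicate 1; elsewhere its adjusted p reached 0.189.

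Ddc encodes the decarboxylase that makes dopamine and serotonin (chr11:11814101-11898144, minus strand). It fell from 2.83, 3.06 and 5.14 CPM to 0.755, 0.556, 0.391 and 0.294 CPM (log2 fold change -2.90, SE 0.47, adjusted p = 0.00696). Of 7 tested genes for catecholamine synthesis and breakdown it was the 1 that passed. Dbh, which turns dopamine into noradrenaline, read 7.63, 7.0 and 4.81 CPM and then 6.04, 1.67, 1.81 and 2.82 CPM, with the ages overlapping through 15-month replicate 1 (adjusted p = 0.0969; 0.00428 without that heart).

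Cish, an inhibitor of cytokine receptor signalling, fell from 80.4, 86.0 and 87.4 CPM to 33.8, 21.8, 18.9 and 31.3 CPM (log2 fold change -1.68, SE 0.22, adjusted p = 0.00156). Nt5e, the ectoenzyme that forms adenosine, went from 18.6 ± 0.204 CPM (SD, n = 3) to 7.65 ± 0.714 CPM (SD, n = 4). Tfpi, the inhibitor of tissue factor, went from 108 ± 9.25 to 52.1 ± 2.84 CPM. The long noncoding RNA Eprn fell from 5.10, 2.7 and 4.65 CPM to 0.593, 0.243, 0.120 and 0.841 CPM. Hsbp1l1 and Fgfbp3, the latter a carrier of fibroblast growth factors, fell by 2.64 and 1.90 on the log2 scale. All 6 genes in this paragraph held their call in the 7 fits with 1 heart left out.

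The remaining large changes rested on fewer hearts. Gpnmb, a glycoprotein of lysosomes and of lipid-laden macrophages, read 0.303, 0.222 and 0.243 CPM at 2 months and 0.701, 2.89, 3.40 and 1.56 CPM at 15 months (log2 fold change 3.07, SE 0.64, adjusted p = 0.0279). Its lowest aged value was that of 15-month replicate 1, and it passed in 1 of the 7 fits, that without this heart (adjusted p up to 0.13 elsewhere). Tenm2, a teneurin adhesion gene, rested on 15-month replicate 2 at 5.94 CPM, with 0.753 to 1.6 CPM in the other aged hearts and 0.101 to 0.355 CPM in the young ones. Its adjusted p was 0.0392, and it lost the call in 5 of the 7 fits, with a highest value of 0.181 without 2-month replicate 1. Klk1b26, of the kallikrein cluster, and Ighg2c, an immunoglobulin constant gene, belong to families of near-identical copies and passed in 5 of the 7 fits. Ighg2c lost its call without 2-month replicate 1 or 2 (up to 0.0818) and Klk1b26 without replicate 1 or 3 (up to 0.085).

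Ion channel and pacing genes moved in both directions. Of 37 tested genes for calcium handling and channels 2 rose and 3 fell, and their median was 0.03. Kcne1, the partner of the Kcnq1 potassium channel, fell from 8.74, 7.67 and 9.74 CPM to 3.07, 1.49, 1.78 and 2.44 CPM (log2 fold change -2.0, SE 0.28, adjusted p = 0.00282), in all 7 fits. Kcnq1 itself read 32.5 ± 0.410 CPM (SD, n = 3) and 28.5 ± 3.55 CPM (SD, n = 4; adjusted p = 0.385). Kcnip2, which shapes the transient outward current, fell from 125 ± 10.4 to 67.5 ± 16.3 CPM (adjusted p = 0.0417), and the pacemaker channel gene Hcn2 from 25.3 ± 2.13 to 15.8 ± 1.35 CPM (adjusted p = 0.0274). Kcnv2, a modulator of potassium channels, rose from 5.86, 5.98 and 4.89 CPM to 16.1, 9.18, 19.8 and 17.0 CPM, and Scn4b, a sodium channel beta subunit, from 34.0 ± 7.01 to 91.9 ± 22.4 CPM (adjusted p = 0.00913 and 0.0347). Hcn2 and Scn4b kept their calls in 1 of the 7 fits, that without 15-month replicate 1, and Kcnip2 in 2 (adjusted p up to 0.147, 0.137 and 0.162); Kcnv2 lost it without 2-month replicates 1 and 3 (up to 0.0604).

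Adrenergic and muscarinic signalling, which sets rate and force, gave 1 rise and 2 falls among 32 tested genes, with a median of 0.11. The rise was Pde11a. Ramp1, a subunit of the receptor for calcitonin gene-related peptide, fell from 21.8, 16.1 and 17.5 CPM to 7.71, 2.43, 1.81 and 3.45 CPM (log2 fold change -2.29, SE 0.44, adjusted p = 0.0212). Its aged values were highest in 15-month replicate 1, and it passed in 1 of the 7 fits, that without this heart (adjusted p up to 0.101 elsewhere). The receptor it joins, Calcrl, read 36.0 ± 4.86 and 44.6 ± 8.56 CPM (adjusted p = 0.323). Adcy5, a main adenylyl cyclase of heart muscle, read 104, 102 and 96.3 CPM and then 67.5, 62.2, 67.4 and 67.4 CPM (log2 fold change -0.61, SE 0.13, adjusted p = 0.0347), and its call also held in 1 of the 7 fits, without 15-month replicate 1 (up to 0.156 elsewhere).

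Membrane repair genes gave 2 rises, Ano5 and Capn3, and 1 fall, Cav3, among 18 tested. Capn3, a calpain of striated muscle, went from 0.404, 0.443 and 0.243 CPM to 1.40, 2.47, 1.81 and 1.43 CPM (log2 fold change 2.29, SE 0.36, adjusted p = 0.0063) and passed in all 7 fits. Cav3, the caveolin of muscle, read 63.3, 49.4 and 55.2 CPM and then 39.3, 20.2, 20.4 and 29.7 CPM (log2 fold change -1.03, SE 0.25, adjusted p = 0.0444). Cav3 passed in 1 of the 7 fits, without 15-month replicate 1, and reached 0.193 elsewhere. Of the 25 sarcomere and Z-disc genes 0 passed in edgeR (median 0.15), 5 had an unadjusted p below 0.05, and DESeq2 called 2 and limma voom 0.

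**Figure D2:**
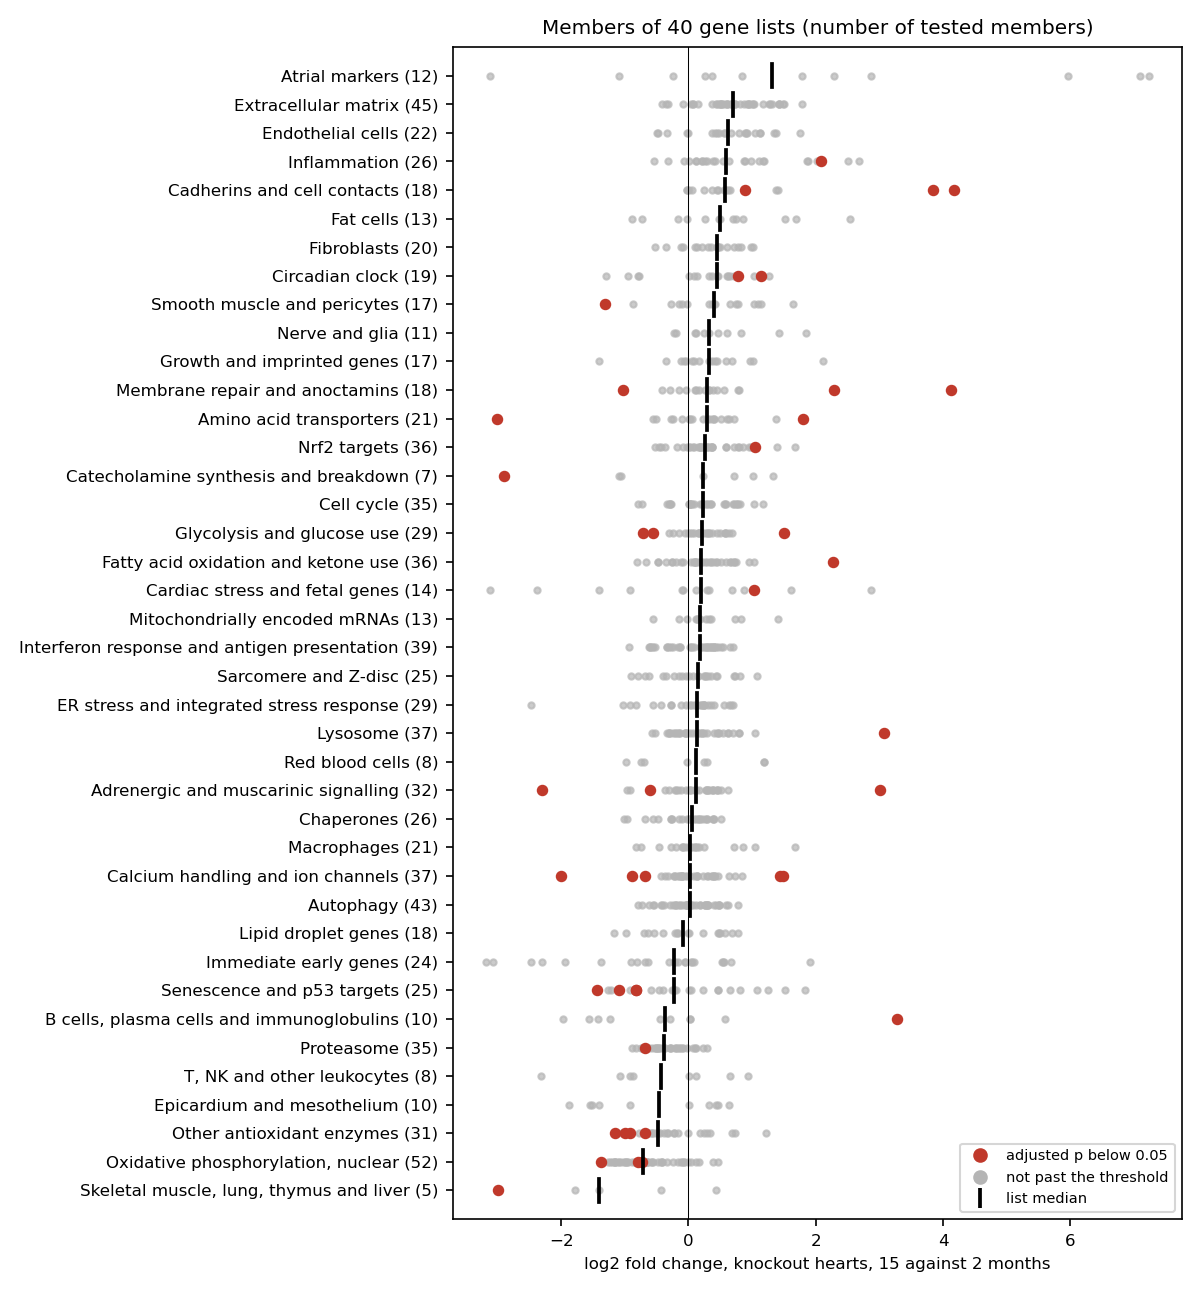
Log2 fold change (horizontal) of each tested member of 40 gene lists in knockout hearts, 15 against 2 months, with the list median as a black bar and genes past the threshold in red; the number of tested members follows each name. The nuclear genes of oxidative phosphorylation have a median of -0.71 and the extracellular matrix genes one of 0.70, against 0.01 for all genes tested.

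Nuclear genes of oxidative phosphorylation, which encode most subunits of the respiratory chain, lay low at 15 months. Of 52 tested, 47 were below 0, 31 had groups that did not overlap downward, and the median was -0.71. In the test 0 rose and 3 fell: Ndufb6 of complex I, Cyc1 of complex III and Atp5g3 of the ATP synthase. An unadjusted p below 0.05 was reached by 38, all lower, and DESeq2 called 28 falls and limma voom 7. Cyc1 read 651, 563 and 594 CPM and then 451, 306, 277 and 356 CPM (log2 fold change -0.79, SE 0.17, adjusted p = 0.0318). Its highest aged value was in 15-month replicate 1, yet still below every young heart. Ndufb6 fell from 205 ± 43.7 CPM (SD, n = 3) to 79.3 ± 38.0 CPM (SD, n = 4), and Atp5g3 from 954 ± 95.5 to 573 ± 132 CPM (adjusted p = 0.0435 and 0.0461). Each of the 3 passed in 1 of the 7 fits, that without 15-month replicate 1, where 40 members fell; elsewhere their adjusted p reached 0.153, 0.193 and 0.204. The ATP synthase subunit Atp5k, outside the list, fell from 164, 96.8 and 136 CPM to 72.0, 29.9, 23.4 and 35.5 CPM with the same dependence (adjusted p = 0.0372, up to 0.17).

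The members of this list are short: their median exon length was 1918 bases, against 4113 for all genes tested. Short genes as a whole were lower in the aged knockout hearts, with a median of -0.61 in the shortest of 10 equal groups of genes. With each library's length slope in the fit the list median was -0.19 and 0 members passed. The 13 mRNAs of the mitochondrial genome lay at a median of 0.18, and 0 were past the threshold in edgeR, 1 had an unadjusted p below 0.05, and DESeq2 called 1 and limma voom 0. mt-Nd3 read 119, 110 and 100 CPM and then 225, 162, 154 and 185 CPM without overlap (adjusted p = 0.0649).

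Fuel use genes moved in both directions. In edgeR 2.78% of the tested fatty acid and ketone genes and 10.3% of the glycolysis genes passed, against 2.25% of all genes tested. DESeq2 called 2 rises and 0 falls in the first list and 3 rises and 2 falls in the second. Without 15-month replicate 1, where 22.6% of all genes tested passed, edgeR gave 10 rises and 2 falls, and 5 rises and 3 falls. Bdh1, which oxidises the ketone body beta-hydroxybutyrate, was the 1 rise among 36 genes of fatty acid and ketone oxidation, and 0 fell. It read 19.9, 17.4 and 23.0 CPM at 2 months and 73.5, 87.2, 130 and 97.4 CPM at 15 months (log2 fold change 2.27, SE 0.42, adjusted p = 0.0165). No aged heart overlapped the young ones, although the call was lost without any of the 2-month hearts or 15-month replicate 3 (adjusted p up to 0.101). Of 29 glycolysis genes Pfkfb1, which controls fructose 2,6-bisphosphate, rose, and Pgk1 and Eno3 fell. Pfkfb1 went from 3.79, 3.81 and 4.29 CPM to 12.4, 9.77, 7.10 and 15.9 CPM (adjusted p = 0.014). Pgk1 went from 205 ± 5.96 to 140 ± 6.98 CPM and Eno3, the muscle enolase, from 957 ± 49.8 to 585 ± 64.3 CPM (adjusted p = 0.0264 and 0.0266). Pfkfb1 lost its call without any 2-month heart (up to 0.0922), and Pgk1 and Eno3 in all fits but that without 15-month replicate 1 (up to 0.117 and 0.126).

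Because p62 binds Keap1, the Nrf2 pathway was examined in the ageing knockout. Nfe2l2 itself read 39.6, 43.0 and 77.8 CPM at 2 months and 42.5, 73.6, 59.2 and 57.4 CPM at 15 months (adjusted p = 0.781), and Keap1 40.3 ± 2.90 and 37.5 ± 4.18 CPM (adjusted p = 0.642). Of 36 tested Nrf2 targets 1 rose and 0 fell, 29 were above 0, and the median was 0.27. DESeq2 called 7 rises and limma voom 1, where they called 10.4% and 3.12% of all genes tested. Without 15-month replicate 1 edgeR gave 8 rises and 2 falls, where it called 22.6% of all genes tested. With the length slope in the fit the list median was 0.16 and 0 members passed. The member that passed was Aox1, an aldehyde oxidase, at 12.6, 12.9 and 10.1 CPM and then 15.5, 19.9, 31.3 and 31 CPM (log2 fold change 1.05, SE 0.24, adjusted p = 0.0404), and it held in 1 of the 7 fits, without 15-month replicate 1 (up to 0.165 elsewhere).

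The best known targets did not pass. Nqo1, a quinone reductase, read 30.7 ± 5.29 CPM (SD, n = 3) and 39.7 ± 7.70 CPM (SD, n = 4), with adjusted p = 0.259. Hmox1, the haem oxygenase, read 3.99, 2.13 and 4.77 CPM and then 3.34, 5.49, 6.83 and 6.23 CPM (adjusted p = 0.288). Srxn1 stood at 11 ± 1.43 and 11.2 ± 0.468 CPM (adjusted p = 0.959). Gclc, the catalytic subunit for glutathione synthesis, did not overlap between ages, at 7.07 to 8.98 and 9.28 to 10.4 CPM, and had an adjusted p of 0.193. Gclm and Txnrd1 had log2 fold changes of 0.29 and 0.25 (adjusted p = 0.31 and 0.263).

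Other antioxidant enzymes went the opposite way in sign. Of 31 tested 0 rose and 4 fell, 24 were below 0, and the median was -0.48. Without 15-month replicate 1, 17 fell and 1 rose; DESeq2 called 11 falls and 1 rise and limma voom 4 falls, and 20 were lower at an unadjusted p below 0.05. Msrb1, which repairs oxidised methionine, fell from 135, 119 and 120 CPM to 74.4, 57.8, 39.97 and 52.0 CPM (log2 fold change -1.15, SE 0.20, adjusted p = 0.0113). Txn1, cytosolic thioredoxin, read 52.9, 40.4 and 47.9 CPM and then 36.7, 22.8, 18.1 and 21.8 CPM (adjusted p = 0.0434). Prdx4, the peroxiredoxin of the endoplasmic reticulum, and Gpx7, a peroxidase of the same compartment, had adjusted p of 0.0397 and 0.0491. Msrb1 lost its call without 2-month replicate 1 (0.0688); Txn1, Prdx4 and Gpx7 kept it in 1 of the 7 fits, that without 15-month replicate 1 (up to 0.19, 0.179 and 0.227 elsewhere). With the length slope in the fit the list median was -0.12 and 1 member fell.

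Protein quality control genes gave few calls in edgeR. Of 43 autophagy genes 0 passed in edgeR, with a median of 0.02; 14 had an unadjusted p below 0.05, and DESeq2 called 3 and limma voom 1. Map1lc3b, the LC3 protein that p62 binds on autophagosomes, read 251, 191 and 232 CPM and then 193, 140, 135 and 151 CPM (adjusted p = 0.105), and Map1lc3a 430, 373 and 375 CPM and then 283, 206, 198 and 223 CPM (adjusted p = 0.0528). Map1lc3a did not overlap between ages; Map1lc3b did, through 2-month replicate 2 and 15-month replicate 1. Nbr1, the receptor most like p62, read 71.4 ± 10.3 and 108 ± 28.1 CPM (adjusted p = 0.136), and Optn, another receptor, 46.4 ± 4.43 and 65.0 ± 7.31 CPM (adjusted p = 0.07). Without 15-month replicate 1 these 4 genes passed, with adjusted p of 0.024 for Map1lc3b, 0.00985 for Map1lc3a, 0.0205 for Nbr1 and 0.0351 for Optn.

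Of 35 proteasome genes 1, the catalytic subunit gene Psmb7, fell and 0 rose, with a median of -0.39 (-0.07 with the length slope in the fit, where 0 fell). An unadjusted p below 0.05 was reached by 18, all lower; DESeq2 called 8 falls and limma voom 4, and edgeR called 16 falls without 15-month replicate 1. Psmb7 went from 127, 119 and 131 CPM to 97.5, 80.6, 61.0 and 75.6 CPM (adjusted p = 0.0352; up to 0.15 with another heart left out). The 37 lysosome genes had 1 rise, Gpnmb, and a median of 0.13; DESeq2 called 6 rises and 1 fall, limma voom 0, and edgeR without 15-month replicate 1 gave 10 rises and 2 falls. Chaperones (26 tested) and genes of endoplasmic reticulum stress (29 tested) had 0 calls in edgeR; 5 and 6 had an unadjusted p below 0.05, DESeq2 called 2 and 1, and limma voom 1 and 0.

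Targets of p53, which halts the cycle after DNA damage, stand in a list of genes of senescence and the p53 response. Of 25 tested 0 rose and 4 fell in edgeR, and the median was -0.22. The list was split, with 11 above 0 and 14 below, and 5 higher and 5 lower without overlap. An unadjusted p below 0.05 was reached by 6 upward and 8 downward. DESeq2 and limma voom each called 1 rise and 4 falls. Without 15-month replicate 1 edgeR gave 3 rises and 5 falls. Phlda3, a p53-induced inhibitor of Akt, read 11.2, 9.49 and 9.99 CPM and then 2.54, 4.17, 4.91 and 3.41 CPM (log2 fold change -1.43, SE 0.20, adjusted p = 0.00268), in all 7 fits. Aen, a p53-induced nuclease, stood at 23.0, 23.9 and 23.9 CPM and then at 14.9, 13, 13.1 and 12.4 CPM (log2 fold change -0.82, SE 0.15, adjusted p = 0.015). Eda2r, a death receptor, fell from 11.7, 8.95 and 8.01 CPM to 5.12, 4.38, 3.91 and 4.46 CPM (adjusted p = 0.0234), and Perp, a junction protein, from 202 ± 2.08 to 114 ± 33.8 CPM (adjusted p = 0.0443). Cdkn1a, the p53 target that blocks the cell cycle, read 16.7, 22.1 and 35.7 CPM and then 5.23, 8.20, 17.3 and 11.7 CPM, overlapping and with adjusted p = 0.185. Aen lost its call without any of the young hearts or 15-month replicate 4 (up to 0.0702), Eda2r in 5 of the 7 fits (up to 0.142) and Perp in all but that without 15-month replicate 1 (up to 0.162).

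Matrix genes lay high but did not pass. Of 45 tested, 41 were above 0, the median log2 fold change was 0.70, and 8 were higher without overlap. Of all genes tested 8.83% were higher without overlap. In edgeR 0 passed, and 12 had an unadjusted p below 0.05, about the share of all genes tested (26.7%). DESeq2 called 8 and limma voom 0, where they called 10.4% and 3.12% of all genes tested. Thbs2, a thrombospondin, read 15.8, 15.4 and 12.9 CPM and then 19.3, 33.0, 69.9 and 40.8 CPM (log2 fold change 1.48, SE 0.41, adjusted p = 0.0659). Postn, made by activated fibroblasts, read 14.7 ± 1.85 and 28.3 ± 4.41 CPM (adjusted p = 0.142), and Col1a1 20.5 ± 2.12 and 41.0 ± 33.6 CPM (adjusted p = 0.367). The summed level of the list was 2110 to 2148 CPM in young hearts, 1755 CPM in 15-month replicate 1 and 2714 to 4365 CPM in the other aged hearts, so the aged hearts fell on both sides of the young ones. Without that replicate 12 members rose, where 22.6% of all genes tested passed. With the length slope in the fit the median was -0.39, and 0 rose and 2 fell. The part of library composition in these values was not tested further.

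Cell type markers can follow the number of cells or the RNA of each cell, and in whole tissue these cannot be told apart. The 22 endothelial markers had a median of 0.62 and a summed level of 1204 to 1377 CPM in young hearts, 1135 CPM in 15-month replicate 1 and 1658 to 2536 CPM in the other aged hearts. In edgeR 0 of them passed, 11 had an unadjusted p below 0.05, DESeq2 called 7 and limma voom 0. Without 15-month replicate 1, 13 rose; with the length slope in the fit the median was -0.03 and 0 passed. Vwf, the clotting factor carrier, read 26.1, 25.5 and 29.4 CPM and then 43.1, 144, 93.4 and 84.5 CPM (adjusted p = 0.059). The 20 fibroblast markers had a median of 0.45 and 0 calls in edgeR (5 unadjusted; DESeq2 2, limma voom 0); without 15-month replicate 1, 4 rose and 1 fell, and with the length slope the median was -0.04. Of 17 smooth muscle and pericyte markers 11 were above 0, with a median of 0.41 (-0.13 with the length slope in the fit). In edgeR 0 rose and 1 fell. DESeq2 called 3 rises and 1 fall and limma voom 1 fall, and without 15-month replicate 1 edgeR gave 4 rises and 1 fall. The fall was Acta2, smooth muscle actin, from 116, 137 and 138 CPM to 36.2, 74.6, 44.6 and 54.1 CPM. Its log2 fold change was -1.31 (SE 0.29, adjusted p = 0.0372), and it passed in 2 of the 7 fits (up to 0.13).

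Leukocyte markers were low in all libraries. The 21 macrophage markers summed to 326 to 437 CPM at 2 months and 299 to 361 CPM at 15 months. Their changes centred on 0.03, and edgeR called 0 (4 unadjusted; DESeq2 2, limma voom 0). The 26 inflammation genes had a median of 0.59, with 23 above 0 and 7 higher without overlap; with the length slope in the fit the median was 0.09. In edgeR 1 rose and 0 fell, DESeq2 called 8 rises and limma voom 1, and edgeR called 9 without 15-month replicate 1. The gene that passed, Ccl11, the eosinophil attractant eotaxin, rose from 0.960, 0.753 and 2.35 CPM to 7.82, 6.5, 4.88 and 4.12 CPM (log2 fold change 2.08, SE 0.38, adjusted p = 0.0142). The lowest aged heart was above the highest young one, and the call was lost without 2-month replicate 1 or 2 (up to 0.101). Ighg2c, made by plasma cells, rose from 0.354, 0.355 and 1.17 CPM to 10.1, 8.73, 3.91 and 2.52 CPM (log2 fold change 3.28, SE 0.56, adjusted p = 0.011). It was the 1 call among 10 tested B cell, plasma cell and immunoglobulin genes. Of these 6 were below 0, 3 were lower without overlap against 1 higher, and the median was -0.37. Their summed level overlapped between ages, at 12.9 to 21.1 CPM in young hearts and 14.3 to 23.8 CPM in aged ones. Interferon and antigen presentation genes (39 tested) had a median of 0.17 and 0 calls in edgeR (5 unadjusted; 0 by DESeq2 and by limma voom).

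A further 10 lists gave 0 calls in edgeR. Of 35 cell cycle genes 7 had an unadjusted p below 0.05, and DESeq2 called 1 and limma voom 0. The 17 growth and imprinted genes had 6 such genes, with 2 by DESeq2 and 0 by limma voom; H19, an imprinted noncoding RNA, read 6.36, 4.92 and 9.30 CPM and then 12, 54.1, 22.8 and 29.8 CPM without overlap (adjusted p = 0.0556). Immediate early genes (24 tested) had 7, with 0 by either other tool, and lipid droplet genes (18 tested) 7, with 1 and 0. Markers of fat cells (13 tested) had 2 (DESeq2 1, limma voom 0), of nerve and glia (11) 1 (0 and 0), of T, NK and other leukocytes (8) 1 (0 and 0), of red blood cells (8) 2 (0 and 0), of the atrium (12) 3 (1 and 1) and of the epicardium (10) 0 (0 and 0). One more list was drawn up for tissues other than heart. No lung, liver or thymus gene in it was tested, so its 5 tested genes are those listed for skeletal muscle. Among them Ckm read 1444 ± 47.5 CPM and Acta1 238 ± 50.6 CPM in young knockout hearts (SD, n = 3). They made up most of the summed level of the list, which is therefore not read as a mark of other tissue. In edgeR 1 of the 5 genes fell, Mylpf, a fast myosin light chain, and 0 rose. The median of the 5 was -1.40, and 4 of the 5 were lower without overlap. At an unadjusted p below 0.05 4 were lower, and DESeq2 called 4 falls and limma voom 2. Without 15-month replicate 1 edgeR gave 2 falls, and with the length slope in the fit 0.

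Load genes of the stressed ventricle did not move together. Nppa, the atrial natriuretic peptide gene, read 136, 146 and 116 CPM at 2 months and 31, 4.59, 11.9 and 14.1 CPM at 15 months, and Nppb 341, 113 and 218 CPM and then 88.0, 8.41, 38.0 and 37.4 CPM. Both were lower in every aged heart, with log2 fold changes of -3.12 (SE 1.09, adjusted p = 0.11) and -2.39 (SE 0.91, adjusted p = 0.124). Myh7, the slow myosin, was higher in every aged heart, at 42.8, 230 and 194 CPM and then 589, 668, 366 and 273 CPM (log2 fold change 1.61, SE 0.75, adjusted p = 0.187). In edgeR 0 of the 3 passed with all libraries in the fit. Nppa passed in DESeq2 (adjusted p = 0.0456), in edgeR with only the 7 knockout libraries (0.0353) and with the atrial score in the fit (0.0486), and in 0 of the 7 fits with 1 heart left out; over all alternatives its adjusted p ran from 0.0353 to 0.525. Fhl1, a LIM protein of the sarcomere that rises with hypertrophy, was the 1 of 14 stress genes that rose, from 50.9, 51.5 and 63.6 CPM to 92.1, 116, 109 and 135 CPM (log2 fold change 1.03, SE 0.22, adjusted p = 0.0332), in 1 of the 7 fits, that without 15-month replicate 1 (up to 0.166 elsewhere).

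Among 19 tested circadian clock genes 2 rose and 0 fell in edgeR, and the median was 0.44, with 15 above 0 and 4 below. DESeq2 called 5 rises and 2 falls and limma voom 2 rises, and edgeR without 15-month replicate 1 gave 4 rises and 2 falls. The clock factor genes Arntl and Npas2 were lower, by 0.95 and 1.29 on the log2 scale, and their ages overlapped (edgeR adjusted p = 0.189 and 0.066). With the length slope in the fit the median was 0.19 and 0 members passed. Bhlhe41, a repressor of the clock, read 15.3, 20.9 and 23.2 CPM at 2 months and 40.9, 54.9, 39.3 and 39.4 CPM at 15 months (log2 fold change 1.14, SE 0.23, adjusted p = 0.0264). Hlf, an output factor of the same family as Dbp, read 23.1, 33.1 and 29.6 CPM and then 47.2, 57.6, 45.5 and 45.6 CPM (log2 fold change 0.78, SE 0.19, adjusted p = 0.0453). Bhlhe41 held its call without 15-month replicate 1 or 3 and reached an adjusted p of 0.149 elsewhere, and Hlf held it only without 15-month replicate 1 among the 7 fits (up to 0.224). The labels do not give the hour at which hearts were taken. Ciart, a clock repressor with a strong daily rhythm, read 0.657, 1.20 and 16.3 CPM in the young hearts and 7.12, 13.6, 9.24 and 7.07 CPM in the aged ones, so the young hearts lay on both sides of the aged hearts (adjusted p = 0.723). Dbp read 24.8, 29.7 and 83.9 CPM and then 93.2, 105, 85.9 and 93.6 CPM without overlap (edgeR adjusted p = 0.111). With a clock score of each library in the fit, which counts Bhlhe41 among its genes, 45 genes were higher and 67 lower in aged hearts. Both Bhlhe41 and Hlf lost their call there. The score itself did not overlap between the ages, at 1.23, 1.75 and 4.11 in young and 4.19 to 4.73 in aged knockout hearts. It ran with age, so this fit cannot tell a clock difference from age.

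The clock factors Clock and Bmal1 (gene Arntl) bind the letters CACGTG, an E-box that reads the same on both strands. The 250 bases before the start of Bhlhe41 and of Ciart are shown because both windows hold it; they run 5′ to 3′ on the gene's strand, are from RefSeq on GRCm38.p6 (chr6:145865421-145865670 and chr3:95882229-95882478, both minus strand), and carry the motif in capitals.
Bhlhe41: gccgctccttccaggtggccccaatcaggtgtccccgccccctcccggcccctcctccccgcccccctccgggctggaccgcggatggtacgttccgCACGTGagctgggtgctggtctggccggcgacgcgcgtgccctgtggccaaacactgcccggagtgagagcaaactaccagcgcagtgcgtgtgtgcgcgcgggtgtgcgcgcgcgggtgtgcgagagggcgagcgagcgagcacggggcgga
Ciart: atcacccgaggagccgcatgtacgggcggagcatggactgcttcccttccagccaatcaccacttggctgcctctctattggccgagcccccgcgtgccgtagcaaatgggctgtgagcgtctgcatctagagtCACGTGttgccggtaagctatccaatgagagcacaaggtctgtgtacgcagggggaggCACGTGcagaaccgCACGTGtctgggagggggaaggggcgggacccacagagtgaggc
The Bhlhe41 window had 1 match, starting 153 bases before the gene start, and the Ciart window 3, starting 116, 58 and 44 bases before it. Of 32851 RefSeq windows of the same length 1978 (6.02%) held the motif, and of the 16 clock genes with a window 5 (31.2%) did; Hlf had 0. A match describes the letters of the window and not a bound site.

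In wild-type hearts most of these genes had an age effect of the same sign, and fewer passed the test. Of the 349 genes called in the knockout 343 (98.3%) had the same sign in the wild type, against 75.4% of all genes tested. In the wild type 161 genes passed (1.04% of those tested), 95 higher (0.612%) and 66 lower (0.425%), and 81 passed in both genotypes, all with 1 direction: 23.2% of the knockout's genes and 50.3% of the wild type's. Of the knockout's 166 rises 57 passed in the wild type, and of its 183 falls 24 did. The 40 genes that held in all 7 fits included 30 that passed in the wild type.

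**Figure D3:**
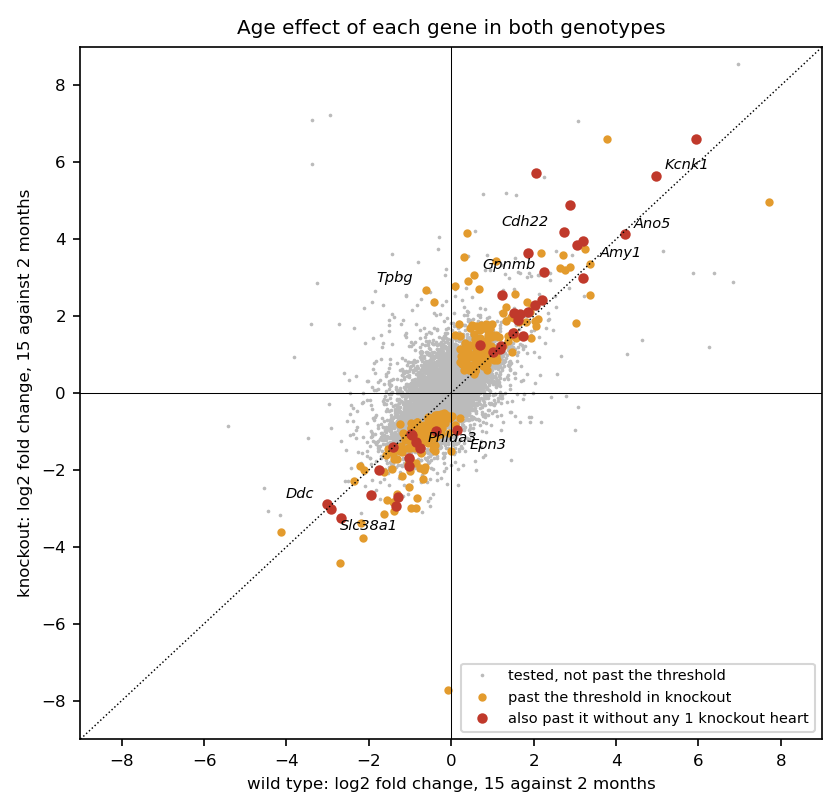
Log2 fold change with age of every tested gene in wild-type (horizontal) and knockout hearts (vertical), with genes past the threshold in the knockout in orange and the 40 that stayed past it without any 1 knockout heart in red; the dotted line marks equal change. Of the 349 coloured genes 343 lie in the quadrants of equal sign, and Epn3 and Tpbg are among the 6 that do not.

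The genes with the steadiest change had these sizes in each genotype. Ano5 rose by 4.12 in the knockout and 4.23 in the wild type, Slc38a1 fell by 3.01 and 2.92, Ddc fell by 2.90 and 3.01, and Cds1 rose by 2.42 and 2.20, all on the log2 scale. Wild-type Slc38a1 read 23.0, 14.4 and 24.5 CPM at 2 months and 3.0, 1.95, 2.86 and 3.10 CPM at 15 months, again without overlap. Amy1 rose by 3.96 and 3.19 and Cdh22 by 4.18 and 2.74. The difference between genotypes was 0.77 for Amy1 (SE 0.25, unadjusted p = 0.00788) and 1.44 for Cdh22 (SE 0.60, unadjusted p = 0.0307), and neither passed after adjustment.

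Across all genes the age effect of the knockout was tested against that of the wild type. By edgeR 0 genes passed, with 577 (3.72%) at an unadjusted p below 0.05 and a lowest adjusted p of 0.9999; limma voom called 0 (525 unadjusted) and DESeq2 called 1 (669 unadjusted), Epn3. Without 2-month knockout replicate 2 edgeR called 1 gene, the pseudogene Rbpj-ps3. So a difference in ageing between the genotypes was not detected at this number of hearts in edgeR, and the errors of the difference were wide, with a median SE of 0.34 over all genes tested.

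Epn3 encodes an epsin, an adaptor of clathrin-coated pits (chr11:94489599-94499974, minus strand). Young knockout hearts read 25.1, 30.3 and 27.7 CPM and aged ones 13.6, 13, 16.2 and 13.7 CPM, a fall of 0.97 on the log2 scale (SE 0.15, adjusted p = 0.00551) that held in all 7 fits. Wild-type hearts read 14.1, 10.9 and 14.3 CPM at 2 months and 15.5, 12.6, 17.1 and 12.6 CPM at 15 months, so the young knockout hearts stood above the other 3 groups. The difference between the age effects was -1.11 in edgeR (SE 0.21, unadjusted p = 0.000116) and -1.09 in DESeq2 (SE 0.23, adjusted p = 0.0283).

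The other 5 called genes of opposite sign were Aen, Tpbg, Osbpl3, Rsph3b and Scn3b, named after their values were seen. Aen, the p53-induced nuclease, read 12.4 to 14.9 CPM in the aged knockout and 23.0 to 23.9 CPM in the young knockout hearts, with 14.5 to 16.2 CPM in young and 13.5 to 21.4 CPM in aged wild-type hearts and a difference of -0.91 (SE 0.21, unadjusted p = 0.000767). Osbpl3, an oxysterol-binding protein, read 27.0 ± 0.925 CPM in young and 17.4 ± 1.89 CPM in aged knockout hearts (SD, n = 3 and 4), and its wild-type change was 0.22. Tpbg, a trophoblast glycoprotein, and Scn3b, a sodium channel beta subunit, were barely counted at 2 months, with 5 and 13 counts in the 3 young knockout hearts. Tpbg kept its call in 1 of the 7 fits, that without 15-month replicate 2, and Osbpl3, Rsph3b and Scn3b in that without 15-month replicate 1. A further pair of genes had small unadjusted p for the difference without a call in the knockout: Klhdc7a, with a difference of -1.64 (SE 0.35), and the microfibril gene Mfap5, with 1.10 (SE 0.25), which passed in the wild type (log2 fold change -1.18, adjusted p = 0.00582) and not in the knockout (-0.09, adjusted p = 0.777).

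List medians of opposite sign in the genotypes included those of the matrix, 0.70 in the knockout and -0.43 in the wild type, and of the 12 atrial markers, 1.31 and -2.32 (0.12 in the knockout without 15-month replicate 1). Fibroblast markers read 0.45 and -0.40, and endothelial markers 0.62 and 0.24. With the length slope in the fit the knockout medians were -0.39 for the matrix and 0.63 for atrial markers. Those of fibroblast and endothelial markers were then -0.04 and -0.03. Wild-type medians were not taken from that fit. No member of these lists passed the test of the difference. Wild-type replicate 1 at 2 months read 84.3 CPM for Col1a1 and 58.7 CPM for Postn. The other young wild-type hearts read 13.9 to 22.9 and 22.9 to 23.8 CPM. Atrial transcripts were uneven in the wild type too: Myl7 ranged from 0.0597 to 638 CPM in young and from 0.357 to 39.7 CPM in aged wild-type hearts, and its part in these medians was not tested.

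Gene length moved with age in both genotypes. In the knockout the median log2 fold change climbed from -0.61 in the shortest of 10 equal groups of genes (exon length 56 to 1352 bases) to 0.27 in the longest, and in the wild type from -0.53 to 0.18. The risen genes had a median exon length of 5948 bases and the fallen genes 1971, with 4113 for all genes tested. Of the 183 falls 61 were in the shortest group, and of the 166 rises 33 were in the longest.

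The length slope of a library is the slope of its log2 CPM, relative to the mean of all libraries, on log2 exon length. It was -0.14, -0.04 and -0.11 in the young knockout hearts and 0.16, 0.24 and 0.09 in 15-month replicates 2, 3 and 4, while 15-month replicate 1, at -0.09, lay among the young hearts. With the slope in the fit 54 genes were higher and 32 lower. Of the 40 genes that held in all 7 fits 35 also passed here; Amy1 kept a change of 4.09 (adjusted p = 1.12e-08), Slc38a1 -3.50 (adjusted p = 6.87e-07) and Ano5 3.91 (adjusted p = 0.00034). Those of the 40 that did not pass here were Fgfbp3, Eprn, Capn3, Tmx1 and Tfpi (adjusted p = 0.112, 0.0974, 0.0648, 0.0601 and 0.06). Outside the 40, Gpnmb was 1.48 and no longer passed (adjusted p = 0.324). Whether RNA length, RNA quality or age itself moved the slope was not tested, since slope and age run together in these hearts.

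**Figure D4:**
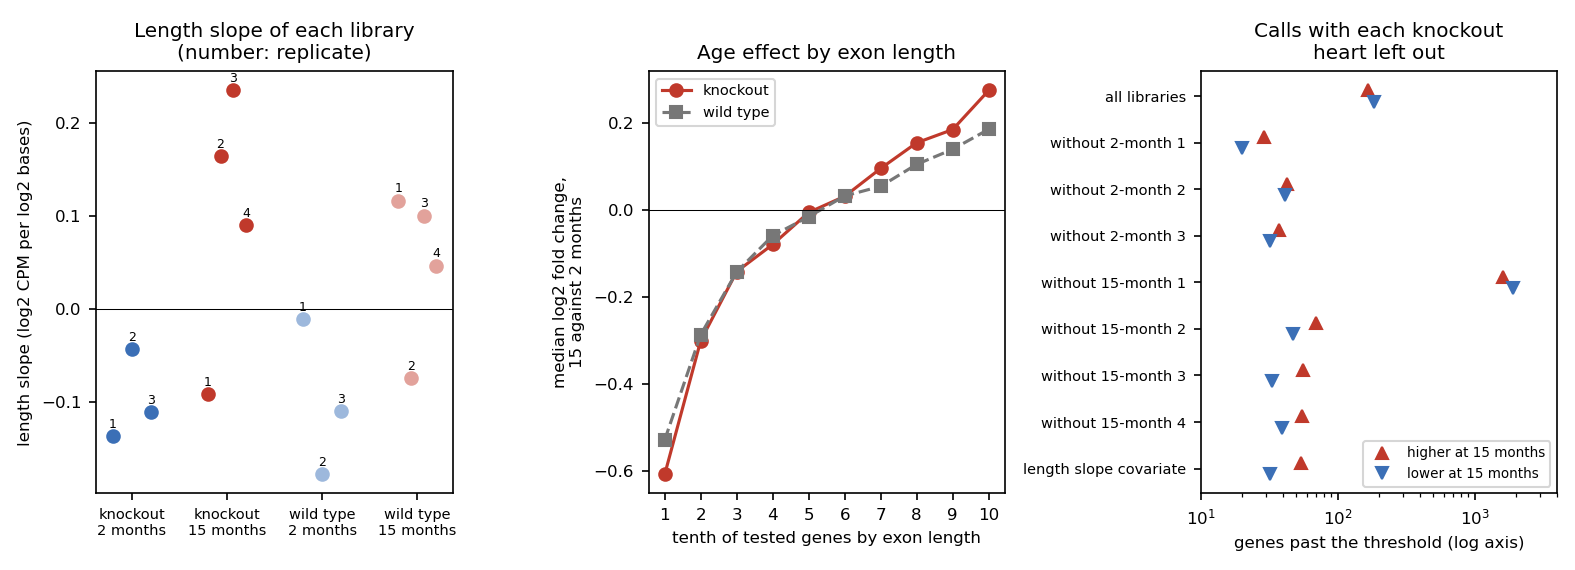
Left, length slope of each library by group (vertical; points numbered by replicate). Middle, median log2 fold change with age (vertical) in 10 equal groups of the tested genes from shortest to longest exon length (horizontal) in knockout (circles) and wild type (squares). Right, genes past the threshold on a log axis in all libraries, with each knockout heart left out, and with the length slope in the fit; triangles up, higher at 15 months, triangles down, lower. Knockout medians run from -0.61 to 0.27, and calls from 20 to 1923 a direction as hearts are left out.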

How the data were processed

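Total RNA of 14 whole hearts was sequenced. The deposited values are raw read counts for 55487 genes, made by the authors with cutadapt 1.16, STAR 2.7.3a and featureCounts 1.6.3 on GRCm38, as named per the submitters' processing notes. Not given in the sources used here were annotation release, strand setting and the handling of reads with several positions, so overlapping, antisense and near-identical genes are uncertain. Symbols, positions and exon lengths come from GENCODE M21, which holds 55227 of the identifiers, and promoter windows from RefSeq.

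Genes kept by filterByExpr (minimum count 10, total 15) were scaled with TMM and fitted in edgeR 4.0.16 (R 4.3.3), with a robust quasi-likelihood model of 1 mean per group over all 14 libraries, which share 1 estimate of the spread. P-values were adjusted by Benjamini-Hochberg over 15528 genes, with a threshold of 0.05. The SE is the log2 fold change over the root of F. CPM uses TMM-scaled totals and compares libraries, not genes. DESeq2 1.42.0, limma voom 3.58.1, other filters, scalings, covariates and leaving out each heart were alternatives. The atrial score averages log2 levels of Myl7, Myl4 and Sln, and the clock score those of Ciart, Dbp, Per3, Nr1d1, Nr1d2 and Bhlhe41 less those of Arntl and Npas2. The fit was tested on simulated data.

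Named genes are a fixed set of 14, the 12 largest rises and 12 largest falls past the threshold without overlap and with a mean of at least 1 CPM (predicted, ribosomal, histone, small RNA genes and pseudogenes left out), up to 3 called members of each of 40 lists or its 2 smallest p, and the 5 smallest p of the difference. Other genes were chosen after their values were seen. Some genes are not reported here. The comparison and the lists were chosen with earlier results of these data known. No 2 knockout libraries of a group agreed within sampling noise. Wild-type libraries were not checked in this way.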

Additional observations from a re-analysis of the deposited data

Results flagged for a closer look

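In 9 of 114 values tested, 1 of the 4 aged knockout hearts lay far from the other 3, with a gap to its nearest neighbour beyond Dixon's 95% critical share of the group's range; chance flags about 1 group in 20. In 4 of these the heart was 15-month replicate 1. It was the highest for Cd300c2, a leukocyte receptor (0.863 CPM, the others 0.391 to 0.463 CPM), Prdx4 (11.8 CPM, the others 6.20 to 7.07 CPM) and the mesothelial marker Msln (0.539 CPM, the others 0 to 0.0695 CPM). It was the lowest for Rrm1, a subunit of ribonucleotide reductase (9.87 CPM, the others 16.2 to 17.2 CPM).

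The other 5 were in 15-month replicate 2. That heart was the highest for Sqstm1 (37.0 CPM, the others 14.6 to 17.6 CPM), Tenm2 (5.94 CPM, the others 0.753 to 1.6 CPM), Bhlhe41 (54.9 CPM, the others 39.3 to 40.9 CPM) and Hlf (57.6 CPM, the others 45.5 to 47.2 CPM), and the lowest for Adcy5 (62.2 CPM, the others 67.4 to 67.5 CPM).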

How the results depend on the processing

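The counts of 166 higher and 183 lower genes stayed within 1.5 times with RLE size factors (169 and 167), no filter (211 and 252), a filter at a mean of 1 CPM (156 and 166) and without mitochondrially encoded genes (165 and 178). They became 790 and 832 in DESeq2, where 930 adjusted p were not given, 151 and 334 in limma voom, 85 and 49 with only the 7 knockout libraries, 54 and 32 with the length slope, 92 and 82 with an atrial score, 45 and 67 with the clock score, 709 and 907 at an adjusted p of 0.1, and 122 and 104 at a log2 fold change of at least 1. Leaving out 1 knockout heart gave 29 to 1600 higher and 20 to 1923 lower, the highest without 15-month replicate 1. With that heart left out and the length slope in the fit, an alternative chosen after seeing the data, 5 and 5 passed, Amy1, Ano5, Slc38a1, Cds1 and Epn3 among them. With a replicate block the counts were 39 and 31; equal numbers had deviations correlated at 0.18, 0.11 and -0.02, so the numbers were not taken to pair hearts. The count of genes whose age effect differed between genotypes was 1 in DESeq2 and 0 to 1 with 1 of the 14 hearts left out. In the alternatives that keep all hearts of the comparison, 319 to 349 of the 349 genes had a value of the same sign; with the filter at 1 CPM, which gave the 319, the other 30 were not tested.

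Among the named genes signs turned only for genes that did not pass: with the length slope, Nfe2l2 (-0.25), Nbr1 (-0.095) and Tap2 (-0.021); with the clock score, Nfe2l2 (-0.47), Nqo1 (-0.099), Srxn1 (-0.17) and Hmox1 (-0.078). With 1 heart left out the log2 fold change ranged from -0.023 to 0.52 for Sqstm1, -0.053 to 0.49 for Nfe2l2, -0.083 to 0.10 for Srxn1, -4.11 to 0.80 for Msln and -0.24 to 0.080 for Mfap5. The cause was not tested for any of these. Depth limits genes with few young counts, such as Kcnk1 and Tpbg, and 3 against 4 hearts limits all small changes.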

Other observations

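Several gene families outside the lists lay low in the aged knockout hearts; they were chosen after their values were seen and are given as counts beside the medians. All 86 tested genes for cytosolic ribosomal proteins were below 0, with a median log2 fold change of -0.99 (wild type -0.83), and 4 fell: Rplp0, Rplp1, Rps29 and Rpl24. Rplp0 read 1100, 776 and 986 CPM at 2 months and 585, 338, 302 and 430 CPM at 15 months (adjusted p = 0.043). Of 80 genes for mitochondrial ribosomal proteins 78 were below 0 and 3 fell (median -0.62). Of 55 replication-dependent histone genes 53 were below 0 and 6 fell, with a median of -0.86 (wild type -1.02); Hist1h4b read 2.78, 1.37 and 2.18 CPM and then 0.863, 0.800, 0.421 and 0.799 CPM. These families are short, with median exon lengths of 1736.5, 2213.5 and 534 bases. Rplp0 kept its call in 1 of the 7 fits with 1 knockout heart left out, that without 15-month replicate 1 (adjusted p up to 0.183), and Hist1h4b in 2 (up to 0.178).

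Small structural RNAs, a further family chosen after the values were seen, gave 11 falls among 68 genes (66 below 0, median -1.16). Rpph1, the RNA of ribonuclease P, read 5188, 3686 and 5516 CPM and then 965, 1048, 1036 and 2361 CPM (log2 fold change -1.83, SE 0.34, adjusted p = 0.0168), and kept the call in 3 of the 7 fits (up to 0.0849). The Y RNA Rny3 went from 4.34, 1.64 and 4.49 CPM to 0.755, 0.243, 0.0903 and 0.673 CPM. With the length slope in the edgeR fit Rpph1 and Rny3 did not pass (adjusted p = 0.375 and 0.12). The fitted fall of Gm24305 rests on 2-month replicate 3 alone, at 306 CPM against 1.21 and 0.488 CPM in the other young hearts and 0.241 to 0.809 CPM in the aged ones.

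A set of 16 isoform genes of skeletal and striated muscle was put together after the values were seen. In it 7 rose and 2 fell. Because of that choice, its share of calls cannot be set against the 2.25% of all genes tested. Scn4a, the sodium channel of skeletal muscle, read 26.0, 29.96 and 23.2 CPM and then 41.2, 62.2, 106 and 88.0 CPM (adjusted p = 0.0212), and Cacna1s, its calcium channel, 8.74, 9.53 and 10.2 CPM and then 23.2, 28.1, 19.4 and 17.6 CPM (adjusted p = 0.011). Myot, a Z-disc protein, rose from 6.77, 9.53 and 10.47 CPM to 47.9, 22.1, 59.6 and 55.5 CPM (adjusted p = 0.00696). The fast light chain Mylpf went the other way, from 2.37, 1.77 and 0.687 CPM to 0.324, 0.209, 0.151 and 0.126 CPM (adjusted p = 0.00913), and Myoz2, a Z-disc protein of slow and heart muscle, fell from 1504 ± 159 to 668 ± 189 CPM (SD, n = 3 and 4; adjusted p = 0.0274). Myot and Mylpf kept their calls in 6 of the 7 fits, Cacna1s in 5, Scn4a in 2 and Myoz2 in 1, that without 15-month replicate 1. All 5 lost the call without 2-month replicate 1, with adjusted p of 0.0663, 0.0688, 0.0816, 0.117 and 0.137 in the same order.

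The mitochondrial carriers of ATP and ADP both fell: Slc25a4 from 3706, 3683 and 3527 CPM to 2487, 2047, 1903 and 2182 CPM and Slc25a5 from 187 ± 16.3 to 125 ± 7.56 CPM (adjusted p = 0.0326 and 0.0462), and each kept its call in 1 of the 7 fits, that without 15-month replicate 1 (up to 0.143 and 0.179 elsewhere). Sodium channels and clustered protocadherins were also chosen after their values were seen. Of 10 sodium channel genes 3 rose, of 38 clustered protocadherins 3 rose, and 0 of either family fell by the same edgeR test. Most of these calls were lost with 1 heart left out: Pcdhb14, Pcdhb20, Scn4b and Scn3b kept theirs in 1 of the 7 fits, that without 15-month replicate 1, and Pcdhga4 and Scn4a in 2 (adjusted p up to 0.184, 0.193, 0.137, 0.181, 0.17 and 0.117).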
